A study of Mus musculus with 24 samples.

Results

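Ndufa4l2, Vegfa, Egln3, Bnip3, Ankrd37, Car9, Pdk1, Slc2a1, Adm and Ddit4 are target genes of the hypoxia-inducible factors (HIF). They were followed in stromal vascular cells of mouse fat that were differentiated in culture with or without EGCG (epigallocatechin gallate), the main green tea catechin. The 10 genes were taken from 37310 genes in the deposited tables, and all 10 passed the filter on low values that left 14095 genes for testing. They were chosen because Ndufa4l2 and Vegfa were higher with EGCG, mainly in white adipose tissue (WAT) cells at day 4. The values that chose them were 14.4 against 259 FPKM for Ndufa4l2 and 73.0 against 206 FPKM for Vegfa, in control and EGCG cells. FPKM counts a gene's fragments relative to its length and to the depth of the library. Every value of the 10 genes in that comparison is therefore given as a description without a test, and so are the values of Ndufa4l2 and Vegfa in every other comparison, since the rule drew on their levels in all groups.

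Cells came from the inguinal WAT or the interscapular brown adipose tissue (BAT) of C57BL/6 mice aged 6 weeks. They were kept in an induction medium with insulin, dexamethasone and IBMX for 4 days and then in a medium with insulin and triiodothyronine for 4 days. EGCG, or the solvent DMSO for control cells, was present in the medium, and the labels used here do not state its dose. RNA was taken at day 4 or day 8, which gave 8 groups of 3 libraries: WAT and BAT, day 4 and day 8, control and EGCG. The labels do not say whether the replicates were separate cultures, so p-values measure only the spread between these libraries.

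HIF is a pair of proteins, an oxygen-regulated alpha subunit (HIF1A or EPAS1) and the constant partner ARNT. When oxygen is present, EGLN enzymes hydroxylate the alpha subunit and VHL marks it for breakdown, and when oxygen is short the pair binds DNA at a short core motif and turns on its targets. The targets carry signals to vessels (Vegfa, Adm), bring in glucose and hold pyruvate back from mitochondria (Slc2a1, Pdk1), alter or clear mitochondria (Ndufa4l2, Bnip3), handle acid (Car9), slow growth signalling (Ddit4) and feed back on HIF itself (Egln3). In fat, HIF activity is known from the low oxygen of growing tissue.

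The core motif of a HIF response element is ACGTG or GCGTG, and the windows that the 10 genes offer are shown first because the shared motif is what the group has in common by name. RefSeq promoters of the build GRCm38.p6 matched 9 of the 10 genes, with 11 start sites, and Ndufa4l2 was not matched. In the 250 bases before each start, ACGTG or GCGTG occurred on either strand in 9 of the 11 windows and in all 9 matched genes. The same letters occurred in 38.6% of the 32851 mouse promoter windows of that length, with ACGTG in 16.6% and GCGTG in 28.2% of them. Both motifs occurred in 5 of the 11 windows and in 6.13% of all windows. The matches for Vegfa lay in the window of a start inside the gene, and the window of its outer start held neither motif. A match is a description of letters and not evidence of binding. The windows of the 4 other genes that held both motifs, and of Egln3, which had the widest range of levels of the 10 genes, run 5′ to 3′ on the gene's strand, with both motifs and their reverse complements in capitals.
Bnip3, chr7:138909507-138909756, minus strand: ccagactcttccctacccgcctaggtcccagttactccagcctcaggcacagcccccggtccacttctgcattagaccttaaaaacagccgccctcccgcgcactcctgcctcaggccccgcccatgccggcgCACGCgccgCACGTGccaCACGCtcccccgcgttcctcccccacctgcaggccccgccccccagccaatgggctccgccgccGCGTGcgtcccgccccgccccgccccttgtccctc
Ankrd37, chr8:45999851-46000100, minus strand: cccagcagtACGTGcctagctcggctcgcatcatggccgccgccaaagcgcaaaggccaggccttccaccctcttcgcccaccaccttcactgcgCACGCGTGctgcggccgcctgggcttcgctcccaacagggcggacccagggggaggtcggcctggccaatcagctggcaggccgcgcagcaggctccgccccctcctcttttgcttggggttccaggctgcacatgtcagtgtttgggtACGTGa
Slc2a1, chr4:119108495-119108744, plus strand: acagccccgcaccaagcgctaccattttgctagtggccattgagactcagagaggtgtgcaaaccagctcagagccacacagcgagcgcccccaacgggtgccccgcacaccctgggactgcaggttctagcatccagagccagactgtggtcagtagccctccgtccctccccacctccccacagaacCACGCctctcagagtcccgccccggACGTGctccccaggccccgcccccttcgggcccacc
Ddit4, chr10:59951771-59952020, minus strand: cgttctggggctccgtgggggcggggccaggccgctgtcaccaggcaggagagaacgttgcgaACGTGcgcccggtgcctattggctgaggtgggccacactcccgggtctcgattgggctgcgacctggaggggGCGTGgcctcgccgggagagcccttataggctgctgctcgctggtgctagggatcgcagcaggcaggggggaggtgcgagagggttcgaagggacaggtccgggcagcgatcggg
Egln3, chr12:54203875-54204124, minus strand: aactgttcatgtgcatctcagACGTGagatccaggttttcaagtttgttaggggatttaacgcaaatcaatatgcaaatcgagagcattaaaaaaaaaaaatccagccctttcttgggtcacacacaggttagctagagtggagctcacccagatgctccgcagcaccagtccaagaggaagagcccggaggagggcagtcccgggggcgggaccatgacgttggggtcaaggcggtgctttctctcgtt
Bnip3 held 5 matches, of which 2 on opposite strands overlapped as 1 palindrome starting 108 bases before the start, a sequence that is also the E-box of other factors. Ankrd37 held 4 matches, of which 2 on opposite strands shared 2 bases, the nearest beginning 6 bases before the start. Slc2a1 held 2 matches, beginning 61 and 36 bases before the start, and Ddit4 held 2, at 187 and 115 bases. Egln3 held 1, at 229 bases. Of the genes not printed, Car9 had 1 ACGTG match beginning 18 bases before its start, Adm had 2 GCGTG matches at 90 and 54 bases, and Pdk1 had 1 GCGTG match at 78 bases.

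Replicates 1 and 2 of each group stood in 1 table of 16 libraries, with 39452696 to 52893848 reads on genes, and replicate 3 stood in another table of 8 libraries, with 16392420 to 41675643 reads. The tables were scaled separately, so tests used the 16 libraries and replicate 3 was read for direction. The WAT day 8 EGCG replicate 3 library stood apart, with 61.0% of its reads on 5 genes against 3.64% to 10.5% elsewhere, and replicate 3 was therefore scaled by median ratios for every difference given here. The control cells expressed markers of mature adipocytes. The summed level of 10 mature adipocyte markers was 3706 to 4078 FPKM in WAT and 6299 to 7296 FPKM in BAT at day 4. Zic1, a marker of the brown depot, had means of 10.6 FPKM in BAT and 0.0454 FPKM in WAT day 4 control cells, and Hoxc10, a marker of the inguinal depot, 0.0291 and 7.70 FPKM. Ucp1, the thermogenic uncoupling protein, reached 6.56 FPKM in BAT day 8 control cells and was listed at 0 in WAT day 8 control cells.

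**Figure D1:**
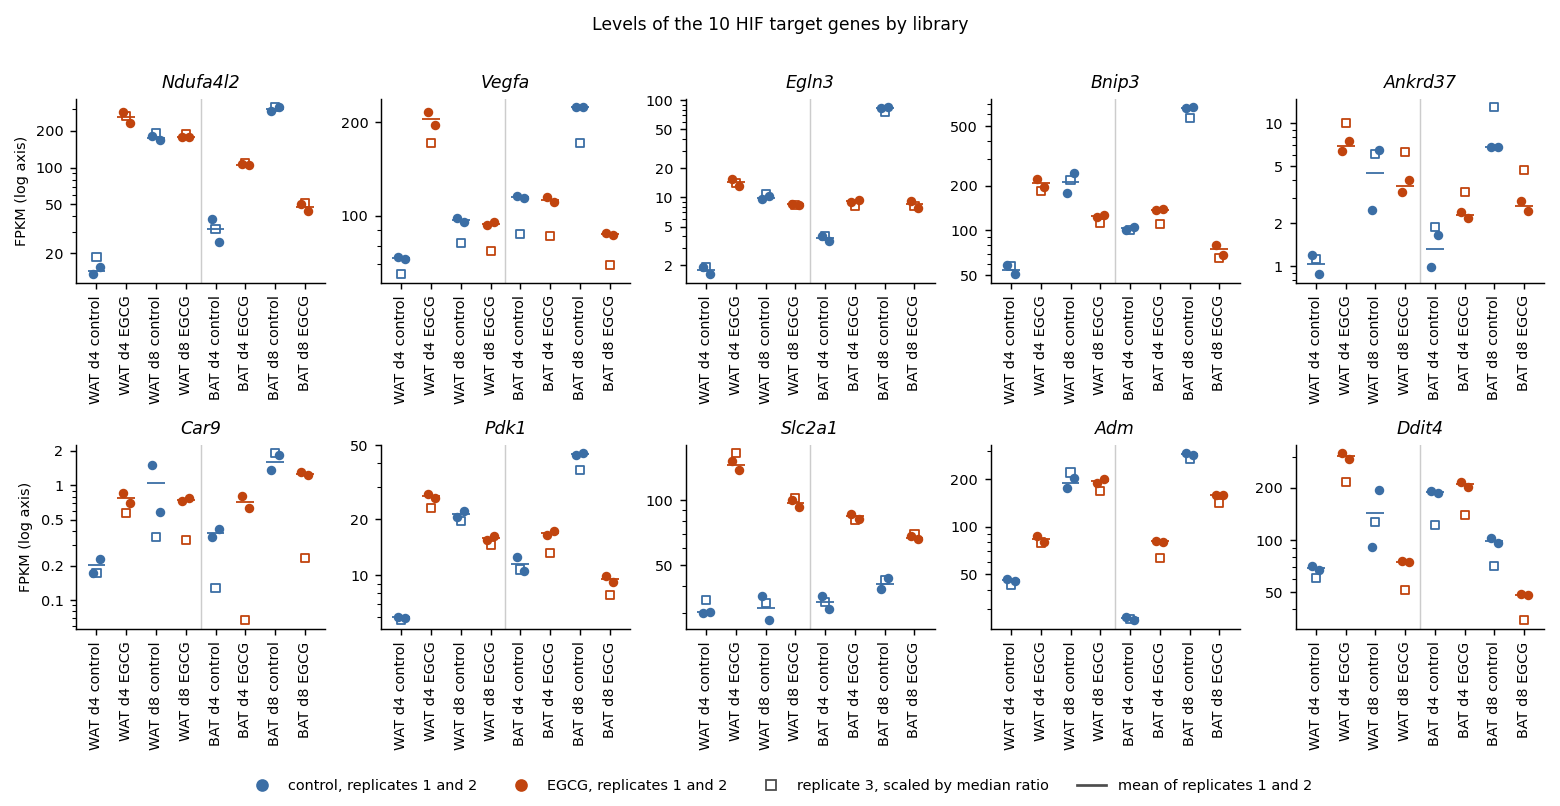
Level of each of the 10 genes in FPKM, on a log axis, in the 24 libraries by group. Filled points are replicates 1 and 2, lines their mean and open squares replicate 3 after median-ratio scaling. BAT day 8 control cells hold the highest mean of 7 genes, among them Egln3 at 83.9 FPKM, and WAT day 4 control cells the lowest of 8, among them Egln3 at 1.77 FPKM.

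In WAT cells at day 4, all 10 genes were higher with EGCG than in control cells. The median log2 difference of the 10 genes was 1.98, against 0.09 for all 14095 genes tested. Both EGCG libraries lay above both control libraries for 10 of 10 genes, which was the case for 47.9% of all genes tested, and replicate 3 differed in the same direction for 10 of 10. The rule that chose the genes used this comparison, so nothing is read from the count. All log2 differences are on the scale log2(FPKM + 1), on which the change of a weakly expressed gene appears too small.

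Ndufa4l2, a mitochondrial paralog of the respiratory subunit NDUFA4, read 13.4 and 15.4 FPKM in WAT day 4 control replicates 1 and 2 and 285 and 234 FPKM with EGCG. Replicate 3 read 19.3 and 300.5 FPKM. The EGCG libraries lay far above the control libraries, by 4.08 ± 0.16 (log2, SE). Vegfa, which signals vessel growth, read 73.6 and 72.5 FPKM in control libraries and 216 and 196 FPKM with EGCG, a difference of 1.48 ± 0.04. Replicate 3 of Vegfa read 67.6 and 195 FPKM. Slc2a1, the glucose transporter GLUT1, read 30.1 and 30.4 FPKM against 152 and 138 FPKM, and Pdk1, a kinase that switches off pyruvate dehydrogenase, 5.97 and 5.94 FPKM against 27.4 and 26.2 FPKM. Their differences were 2.22 ± 0.10 and 2.00 ± 0.07.

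Egln3, the HIF prolyl hydroxylase that HIF itself induces, read 1.93 and 1.61 FPKM in control libraries and 15.6 and 13.1 FPKM with EGCG. Bnip3, a receptor that tags mitochondria for autophagy, read 58.4 and 50.8 FPKM against 222 and 196 FPKM. Ddit4, an inhibitor of mTORC1 signalling also called REDD1, read 70.6 and 67.2 FPKM against 316 and 292 FPKM. In each of these 3 genes the EGCG libraries lay above the control libraries without overlap, as they did in replicate 3. Adm, the vasodilating peptide adrenomedullin, differed less, from 46.4 and 45.0 FPKM to 87.5 and 80.4 FPKM, a difference of 0.86 ± 0.06. Ankrd37, a small ankyrin-repeat protein, had mean levels of 1.04 ± 0.22 and 6.98 ± 0.80 FPKM (SD, n = 2). Car9, the cell-surface carbonic anhydrase IX, stayed under 1 FPKM in both groups, with 18 and 20 reads in control libraries and 76 and 66 reads with EGCG. By the ratio of mean FPKM, the 10 genes ranged from 18.03-fold for Ndufa4l2 to 1.84-fold for Adm. Car9 had the smallest log2 difference, 0.56, on a scale that shrinks the change of a weak gene, and a ratio of 3.84-fold.

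In bulk RNA, fewer cells of a type and less RNA per cell cannot be told apart. In WAT cells at day 4 the 10 mature adipocyte markers summed to 3706 to 4078 FPKM in control libraries and 1105 to 1157 FPKM with EGCG, and all 10 were lower with EGCG without overlap. Macrophage markers (10 genes) summed to 76.0 to 80.9 FPKM and 196 to 201 FPKM, and endothelial markers (10 genes) to 28.4 to 29.2 FPKM and 61.5 to 62.1 FPKM. Lyz2 held most of the macrophage sum, with mean levels of 55.4 and 162 FPKM, while the means of Aif1 and Ptprc reached at most 0.037 and 0.107 FPKM. Ndufa4l2 is known from pericytes, and the 10 pericyte and mural markers summed to 135.2 FPKM in both control libraries and to 137 and 141 FPKM with EGCG. Their defining genes Rgs5, at 1.36 and 2.43 FPKM, and Higd1b, at 0.67 and 1.16 FPKM, were low. Of the 10, 6 lay higher with EGCG without overlap and 2 lower, among them Anpep, by -2.27. The part of other cell types in the levels of the 10 genes was not tested.

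All 10 genes are protein-coding, and their reads were assigned over exons of the build NCBIM37, whose gene models the deposited lengths match. Vegfa (ENSMUSG00000023951.9) lay on chromosome 17 from 46153942 to 46169326 (minus strand) and Adm (ENSMUSG00000030790.7) on chromosome 7 from 117771175 to 117773331 (plus strand). Slc2a1 (ENSMUSG00000028645.4) lay on chromosome 4 from 118781316 to 118809935 (plus strand) and Pdk1 (ENSMUSG00000006494.5) on chromosome 2 from 71711281 to 71741915 (plus strand). Ndufa4l2 (ENSMUSG00000040280.9) lay on chromosome 10 from 126951995 to 126954208 (plus strand) and Bnip3 (ENSMUSG00000078566.2) on chromosome 7 from 146082519 to 146101202 (minus strand). Egln3 (ENSMUSG00000035105.5) lay on chromosome 12 from 55279968 to 55304847 (minus strand) and Car9 (ENSMUSG00000028463.7) on chromosome 4 from 43519838 to 43526601 (plus strand). Ddit4 (ENSMUSG00000020108.3) lay on chromosome 10 from 59412423 to 59414518 (minus strand) and Ankrd37 (ENSMUSG00000050914.9) on chromosome 8 from 47082256 to 47085221 (minus strand).

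Ndufa4l2 shares a stretch of the genome with Shmt2, which encodes the mitochondrial serine hydroxymethyltransferase on the opposite strand. The exons of Ndufa4l2 overlapped those of Shmt2 over 14 of 960 bases. Shmt2 read 48.0 and 46.7 FPKM in WAT day 4 control libraries and 68.2 and 65.6 FPKM with EGCG, a log2 difference of 0.49 against 4.08 for Ndufa4l2. In BAT cells at day 8 Shmt2 fell by 0.50 on the log2 scale (adjusted p = 2.36e-07, limma) while the log2 difference of Ndufa4l2 was -2.64. In WAT cells at day 8 Shmt2 rose by 0.77 (adjusted p = 1.62e-08, limma) while that of Ndufa4l2 was 0.02. Ankrd37 shared 349 exonic bases with Lrp2bp and 57 with Ufsp2, both on the opposite strand. Car9 shared 214 exonic bases with the antisense transcript Gm12454, and Slc2a1 shared 105 with the antisense transcript Gm12868. Gm12868 read 0.32 to 4.12 FPKM in the 16 libraries of replicates 1 and 2 and 0 reads in all 8 of replicate 3, where a count of 3 reads would be 0.173 to 0.439 FPKM.

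In WAT cells at day 8 the 10 genes did not share a direction. Of the 8 genes given a test, Slc2a1 rose, Bnip3, Pdk1 and Ddit4 fell, and 4 did not pass the test. Of all genes tested, 44.7% were called higher and 18.9% lower, and the median log2 difference was -0.16 for the 10 genes and 0.17 for all genes. Higher calls made up 70.3% of all calls here and 51.3% under median-ratio scaling, which moved the median of all genes to 0.01. Relative to the all-gene median, each difference of the 10 genes was lower by that shift. Slc2a1 read 35.9 and 27.8 FPKM in control libraries and 100.1 and 93.0 FPKM with EGCG, a rise of 1.58 ± 0.10 (log2, SE, adjusted p = 1.34e-07, limma with Benjamini-Hochberg adjustment over 14095 genes). Bnip3 read 177 and 244 FPKM against 123 and 126 FPKM and fell by 0.74 on the log2 scale (adjusted p = 0.000287). Pdk1 read 20.6 and 22.1 FPKM against 15.5 and 16.3 FPKM and fell by 0.40 (adjusted p = 0.000307). Ddit4 read 91.4 and 193 FPKM against 75.6 and 74.4 FPKM and fell by 0.82 (adjusted p = 0.00833). The size of that change rested on the control libraries, with -1.35 without WAT day 8 control replicate 1 and -0.28 without replicate 2. The EGCG libraries lay outside the control libraries in all 4.

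Egln3 read 9.58 and 10.3 FPKM in WAT day 8 control libraries and 8.60 and 8.42 FPKM with EGCG, a log2 difference of -0.20 ± 0.09 that did not pass the test (adjusted p = 0.0802). Under median-ratio scaling its difference was -0.38 (adjusted p = 0.00363). Ndufa4l2 read 180.4 and 169.9 FPKM against 177 and 179 FPKM, and the groups overlapped. Vegfa read 98.6 and 95.7 FPKM against 93.0 and 95.6 FPKM, a separation of less than 1 FPKM between the nearest libraries. The mean levels of Adm were 189 ± 19.5 FPKM in control and 195 ± 7.14 FPKM in EGCG cells, and its log2 difference of 0.05 turned to -0.15 under median-ratio scaling. The 2 WAT day 8 control libraries differed widely, from 2.50 to 6.48 FPKM for Ankrd37 and from 1.50 to 0.591 FPKM for Car9. Without WAT day 8 control replicate 1 the difference of Ankrd37 was -0.69, and without replicate 2 it was 0.41. Without WAT day 8 control replicate 2 the differences of Car9 and Adm were -0.52 and 0.15, and without replicate 1 they were 0.14 and -0.06. Mature adipocyte markers summed to 6318 to 7170 FPKM in control and 650.3 to 712 FPKM in EGCG libraries, and macrophage markers to 120.0 to 145 FPKM and 57.4 to 60.9 FPKM. Endothelial markers summed to 33.7 to 37.1 FPKM and 41.5 to 44.7 FPKM. Pericyte and mural markers summed to 157 to 181 FPKM and 213 to 214 FPKM, but of the 10, Pdgfrb and Notch3 rose, by 0.96 and 1.01 (adjusted p = 2.69e-08 and 1.6e-07), while Vtn, Higd1b and Anpep fell by 2.91, 0.93 and 0.62 (adjusted p = 1.34e-07, 0.000784 and 0.000198). How many of these markers were called lower depended on WAT day 8 control replicate 2. Their part was not tested.

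In BAT cells at day 4, 5 of the 8 genes given a test rose with EGCG and none fell. Of all genes tested 27.9% were called higher and 20.6% lower, and the median log2 difference was 0.52 for the 10 genes and 0.03 for all genes. Of these 5, Adm had the largest rise, from 26.99 and 25.5 FPKM to 81.6 and 80.2 FPKM, a rise of 1.59 ± 0.06 (log2, SE, adjusted p = 8.77e-09, limma). Slc2a1 read 36.0 and 31.5 FPKM in control libraries and 86.3 and 82.0 FPKM with EGCG and rose by 1.30 (adjusted p = 1.17e-06). Egln3 read 4.02 and 3.58 FPKM against 9.003 and 9.38 FPKM and rose by 1.09 (adjusted p = 1.87e-06). Pdk1, from a mean of 11.6 to 17.0 FPKM, and Bnip3, from 103 to 138 FPKM, rose by 0.52 and 0.42 (adjusted p = 6.69e-05 and 0.0164). In these 5 genes replicate 3 also differed upward. Ndufa4l2 read 38.1 and 24.7 FPKM against 107 and 105 FPKM, a log2 difference of 1.76, while Vegfa read 116 and 114 FPKM against 115 and 111 FPKM, and its groups overlapped.

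Ankrd37, Car9 and Ddit4 did not pass the test in BAT cells at day 4, with log2 differences of 0.52, 0.31 and 0.14 (adjusted p = 0.13, 0.163 and 0.645). Replicate 3 differed by 0.58, -0.08 and 0.18, so that of Car9 went the other way. Whether these 3 passed depended on the WAT day 8 control libraries, which entered this comparison only through the shared estimate of the spread. Bnip3 did not pass without BAT day 4 control replicate 1 (0.38, adjusted p = 0.0838), EGCG replicate 1 (0.42, adjusted p = 0.0597) or EGCG replicate 2 (0.41, adjusted p = 0.067). Mature adipocyte markers summed to 6299 to 7296 FPKM in control and 1527 to 1590.0 FPKM in EGCG libraries, macrophage markers to 174 to 184 FPKM and 380 to 421 FPKM, and endothelial markers to 22.4 to 26.6 FPKM and 56.3 to 60.8 FPKM. Pericyte and mural markers summed to 132 to 134 FPKM and 180.2 to 183 FPKM. Of these 10, Notch3, Cspg4 and Pdgfrb rose, by 1.68, 0.82 and 0.77 (adjusted p = 9.24e-09, 6.2e-05 and 2.77e-07), while Abcc9, Vtn, Anpep and Kcnj8 fell by 1.24, 1.12, 1.03 and 0.87 (adjusted p = 0.000106, 0.000495, 5.55e-06 and 0.00376). Their part was not tested.

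**Figure D2:**
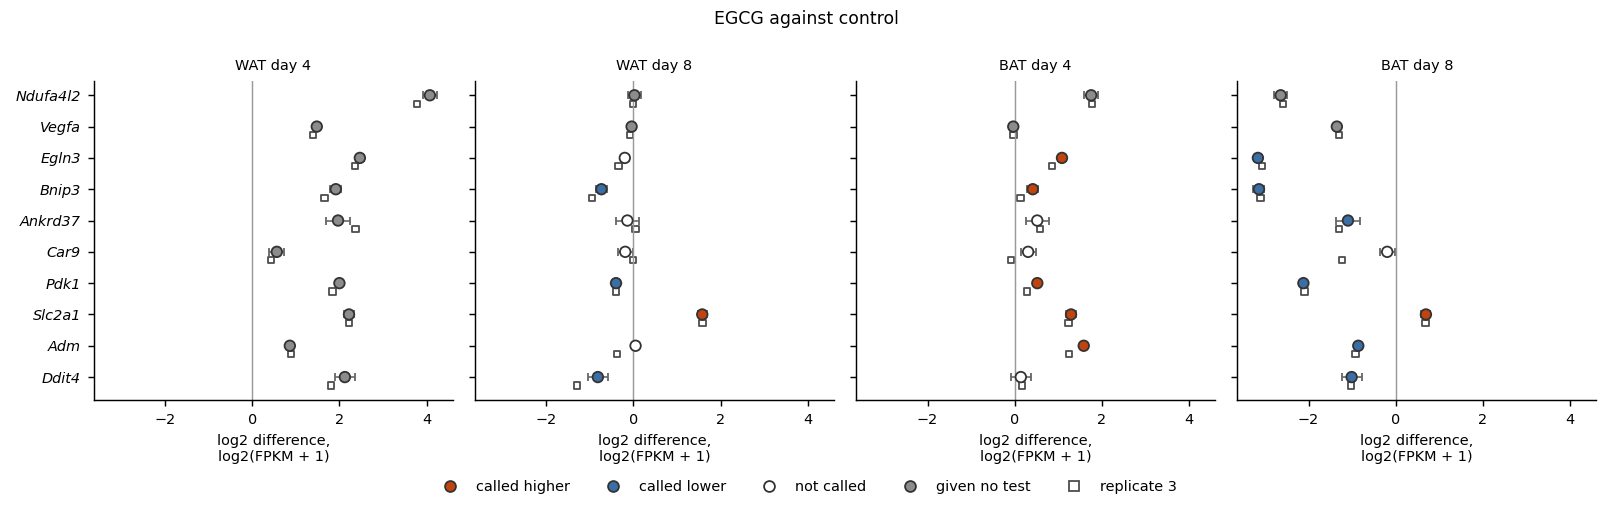
Log2 difference between EGCG and control on the log2(FPKM + 1) scale for the 10 genes in each depot and day. Circles are from replicates 1 and 2 with the SE of the fit, grey where no test was given, and open squares are replicate 3. All 10 circles of WAT day 4 lie above 0, with a median of 1.98, and Slc2a1 alone lies above 0 in BAT day 8, at 0.69.

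In BAT cells at day 8, 6 of the 8 genes given a test fell with EGCG, Slc2a1 rose, and Car9 did not pass the test. Of all genes tested 46.5% were called higher and 26.1% lower. The median log2 difference was -1.23 for the 10 genes and 0.17 for all genes. Higher calls made up 64.0% of all calls and 51.8% under median-ratio scaling, which moved the median of all genes to 0.02. Egln3 read 83.0 and 84.8 FPKM in control libraries and 9.26 and 7.73 FPKM with EGCG, and fell by 3.17 on the log2 scale (SE 0.09, adjusted p = 7.87e-11, limma). Bnip3 read 657 and 671 FPKM against 80.3 and 68.8 FPKM and fell by 3.14 (adjusted p = 8.54e-10). Pdk1 read 44.1 and 45.4 FPKM against 9.88 and 9.18 FPKM and fell by 2.12 (adjusted p = 1.69e-10). The EGCG libraries of these 3 genes lay far below the control libraries, and replicate 3 differed by -3.06, -3.11 and -2.09.

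Adm read 292 and 286 FPKM in BAT day 8 control libraries and 159 and 158 FPKM with EGCG, and fell by 0.86 (adjusted p = 1.61e-07). Ddit4 read 102 and 95.7 FPKM against 49.0 and 48.1 FPKM and fell by 1.01 (adjusted p = 0.00176). Ankrd37 fell by 1.10 (adjusted p = 0.00277), from a mean of 6.80 to 2.65 FPKM. Slc2a1 went the other way, from 38.7 and 43.7 FPKM to 68.0 and 66.0 FPKM, a rise of 0.69 ± 0.10 (adjusted p = 7.64e-05). The 2 genes given no test were both lower with EGCG. Ndufa4l2 read 290.0 and 312 FPKM in control libraries and 50.3 and 44.5 FPKM with EGCG, a log2 difference of -2.64, and Vegfa read 224 in both control libraries and 87.8 and 86.6 FPKM with EGCG, a difference of -1.35. Car9 read 1.36 and 1.85 FPKM against 1.30 and 1.23 FPKM, and its nearest libraries lay close. In replicate 3 Car9 read 2.01 FPKM, from 72 reads, against 0.286 FPKM, from 10 reads. Mature adipocyte markers summed to 11260 to 11340 FPKM in control and 469 to 477 FPKM in EGCG libraries, and macrophage markers to 120.5 FPKM in both control libraries and 59.8 to 61.0 FPKM with EGCG. Pericyte and mural markers summed to 144 to 147 FPKM and 300.4 to 307 FPKM, with Pdgfrb from a mean of 62.0 to 219 FPKM, while Rgs5 had means of 3.02 and 1.60 FPKM. Of the 10, 2 were called higher and 5 lower, and 3 lower without BAT day 8 control replicate 1 or 2 or EGCG replicate 2. Endothelial markers summed to 26.7 to 28.6 FPKM and 44.7 to 46.4 FPKM. Their part was not tested.

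The difference between these effects was tested for the 8 genes as an interaction. At day 8 the EGCG effect was lower in BAT than in WAT cells for 5 of 8 genes and higher for none, where 19.7% of all genes were called lower and 19.4% higher. The differences of effects were -2.97 ± 0.13 for Egln3 (log2, SE, adjusted p = 9.83e-08, limma), -2.41 for Bnip3 (adjusted p = 2.26e-06), -1.72 for Pdk1 (adjusted p = 4.15e-07), -0.91 for Adm (adjusted p = 1.86e-05) and -0.89 for Slc2a1 (adjusted p = 0.000663). Slc2a1 was therefore raised in both depots, and less in BAT. Ankrd37 did not pass (-0.96, adjusted p = 0.0644), nor did Ddit4 (-0.20, adjusted p = 0.671) or Car9 (-0.01, adjusted p = 0.986). Without WAT day 8 control replicate 2 the values of Ankrd37 and Ddit4 were -1.51 and -0.73, and without replicate 1 that of Ddit4 was 0.34. Ndufa4l2 and Vegfa, given no test, had differences of effects of -2.67 and -1.31.

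Between the days in BAT cells, the EGCG effect at day 8 was lower than at day 4 for 7 of 8 genes and higher for none, where 20.6% of all genes were called lower and 34.7% higher. Higher calls made up 62.8% of all calls and 49.3% under median-ratio scaling. The difference of effects was -4.25 ± 0.13 for Egln3 (log2, SE, adjusted p = 2.09e-09, limma), -3.56 for Bnip3 (adjusted p = 5.6e-08), -2.64 for Pdk1 and -2.45 for Adm (both adjusted p = 6.25e-09). It was smaller for Ankrd37 (-1.62, adjusted p = 0.00337), Ddit4 (-1.16, adjusted p = 0.0101) and Slc2a1 (-0.60, adjusted p = 0.00452). Car9 did not pass (-0.51, adjusted p = 0.1). That result depended on the WAT day 8 control libraries, which entered this comparison only through the shared estimate of the spread. Ndufa4l2 and Vegfa had differences of effects of -4.40 and -1.32, without a test. The 2 interactions share the BAT day 8 libraries.

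The control cells had changed by themselves between day 4 and day 8. These comparisons share control libraries with the EGCG comparisons, so each is given with its own values. In BAT control cells 7 of the 8 genes given a test rose from day 4 to day 8 and Ddit4 fell, where 28.7% of all genes were called higher and 40.4% lower. Higher calls made up 41.5% of all calls and 53.3% under median-ratio scaling. Egln3 rose by 4.15 ± 0.09 (log2, SE, adjusted p = 6.98e-11, limma), from a mean of 3.799 to 83.9 FPKM, the widest change of the 10. Adm rose by 3.41 (adjusted p = 2.49e-11), from 26.3 to 289 FPKM, and Bnip3 by 2.68 (adjusted p = 5.33e-09), from 103 to 664 FPKM. Pdk1 and Ankrd37 rose by 1.87 and 1.76 (adjusted p = 1.07e-09 and 9.42e-05). Car9 rose by 0.90 (adjusted p = 0.000591). Slc2a1 rose by 0.28 (adjusted p = 0.0318), a call lost without BAT day 4 control replicate 2 (0.19, adjusted p = 0.215) or BAT day 8 control replicate 2 (0.19, adjusted p = 0.205). Ddit4 fell by 0.93 (adjusted p = 0.00359), from 189 to 99.1 FPKM. Ndufa4l2 had means of 31.4 and 301 FPKM and Vegfa of 115 and 224 FPKM, log2 differences of 3.25 and 0.95 without a test.

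In WAT control cells 7 of the 8 genes given a test rose from day 4 to day 8 and none fell, where 27.7% of all genes were called higher and 33.2% lower. The WAT day 4 control libraries were part of the comparison that chose the genes, so nothing is read from this count. Adm rose by 2.02 ± 0.06 (log2, SE, adjusted p = 9.57e-10, limma), Egln3 by 1.98 (adjusted p = 1.32e-08), Bnip3 by 1.92 (adjusted p = 1.45e-07) and Pdk1 by 1.68 (adjusted p = 5.15e-09). Ankrd37, Ddit4 and Car9 rose by 1.33, 0.94 and 0.73 (adjusted p = 0.00103, 0.00392 and 0.00313). The sizes of these 3 changes rested on the WAT day 8 control libraries. Without replicate 2 Ankrd37 rose by 0.78 and Ddit4 by 0.40, and without replicate 1 Ddit4 rose by 1.48 and Car9 by 0.41. Slc2a1 did not pass (0.06, adjusted p = 0.642). Its value was 0.24 without WAT day 8 control replicate 2 and -0.12 without replicate 1. Ndufa4l2 had means of 14.4 and 175 FPKM and Vegfa of 73.0 and 97.2 FPKM, log2 differences of 3.52 and 0.41 without a test. Over the same days the mature adipocyte markers summed to 3706 to 4078 FPKM and 6318 to 7170 FPKM in WAT, and to 6299 to 7296 FPKM and 11260 to 11340 FPKM in BAT. Fabp4 weighed most on the rise, with means of 1789 and 4021 FPKM in WAT and 4569 and 7546 FPKM in BAT. In WAT Lpl fell by 0.40 (adjusted p = 0.000941), Pparg and Cebpa did not pass, and the others rose. In BAT Cebpa and Lpl did not pass, and the others rose. The macrophage markers summed to 76.0 to 80.9 FPKM and 120.0 to 145 FPKM in WAT, where all 8 that passed the filter rose, and to 174 to 184 FPKM and 120.5 FPKM in BAT, where 1 of 8 rose and 2 fell. Pericyte and mural markers summed to 135.2 FPKM and 157 to 181 FPKM in WAT and to 132 to 134 FPKM and 144 to 147 FPKM in BAT. Within this list Mcam had means of 17.9 and 27.2 FPKM in WAT and 28.1 and 40.8 FPKM in BAT. Kcnj8 went the other way, with 7.54 and 1.74 FPKM in WAT and 4.70 and 0.690 FPKM in BAT, and so did Abcc9. Endothelial markers summed to 28.4 to 29.2 FPKM and 33.7 to 37.1 FPKM in WAT and to 22.4 to 26.6 FPKM and 26.7 to 28.6 FPKM in BAT. Among them Tek rose by 1.06 and Egfl7 fell by 0.63 in BAT (adjusted p = 2.37e-07 and 0.000201). The part of these cell types was not tested.

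Between the depots, control cells of BAT and WAT differed at both days. At day 8, 5 of the 8 genes given a test were higher in BAT and none was lower, where 31.6% of all genes were called higher and 22% lower. Higher calls made up 59.0% of all calls and 48.9% under quantile normalization, under which Ddit4 was called lower (-0.56, adjusted p = 0.0376) and Slc2a1 was not called. Egln3 stood 2.96 ± 0.09 higher (log2, SE, adjusted p = 2.09e-09, limma), Bnip3 1.67 (adjusted p = 6.57e-07) and Pdk1 1.04 (adjusted p = 2.56e-07). Vegfa and Ndufa4l2 were 1.20 and 0.78 higher, without a test. Adm was 0.61 higher (adjusted p = 9.29e-06) and Slc2a1 0.37 higher (adjusted p = 0.0108). Slc2a1 was not called without WAT day 8 control replicate 2 (0.19, adjusted p = 0.106) or BAT day 8 control replicate 2 (0.28, adjusted p = 0.0916). Ankrd37, Car9 and Ddit4 did not pass, and their values rested on the WAT day 8 control libraries. Ankrd37 stood at 1.16 without replicate 2, and Car9 and Ddit4 stood at 0.71 and -0.96 without replicate 1. The sums of the cell type markers in these control groups, given above for the days, differed between the depots as well, and their part was not tested.

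At day 4, Ddit4, Bnip3, Pdk1 and Egln3 were higher in BAT control cells and Adm was lower, 5 of the 8 genes given a test, where 41.4% of all genes were called higher and 14.4% lower. The counts lay near these shares. Nothing is read from them, since the WAT day 4 control libraries were also part of the comparison that chose the genes. Higher calls made up 74.3% of all calls, against 51.6% after median-ratio scaling and 54.5% after quantile normalization. Ddit4 differed by 1.44 ± 0.23 (log2, SE, adjusted p = 0.000289, limma), from 68.9 FPKM in WAT to 189 FPKM in BAT, and Adm by -0.78 (adjusted p = 2.57e-06), from 45.7 to 26.3 FPKM. Bnip3, Pdk1 and Egln3 were 0.91, 0.85 and 0.79 higher (adjusted p = 0.000104, 2.34e-06 and 3.18e-05). Ankrd37, Car9 and Slc2a1 did not pass, with values of 0.18, 0.21 and 0.15, and the value of Slc2a1 was -0.01 under median-ratio scaling. Ndufa4l2 and Vegfa were 1.04 and 0.65 higher in BAT, without a test.

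**Figure D3:**
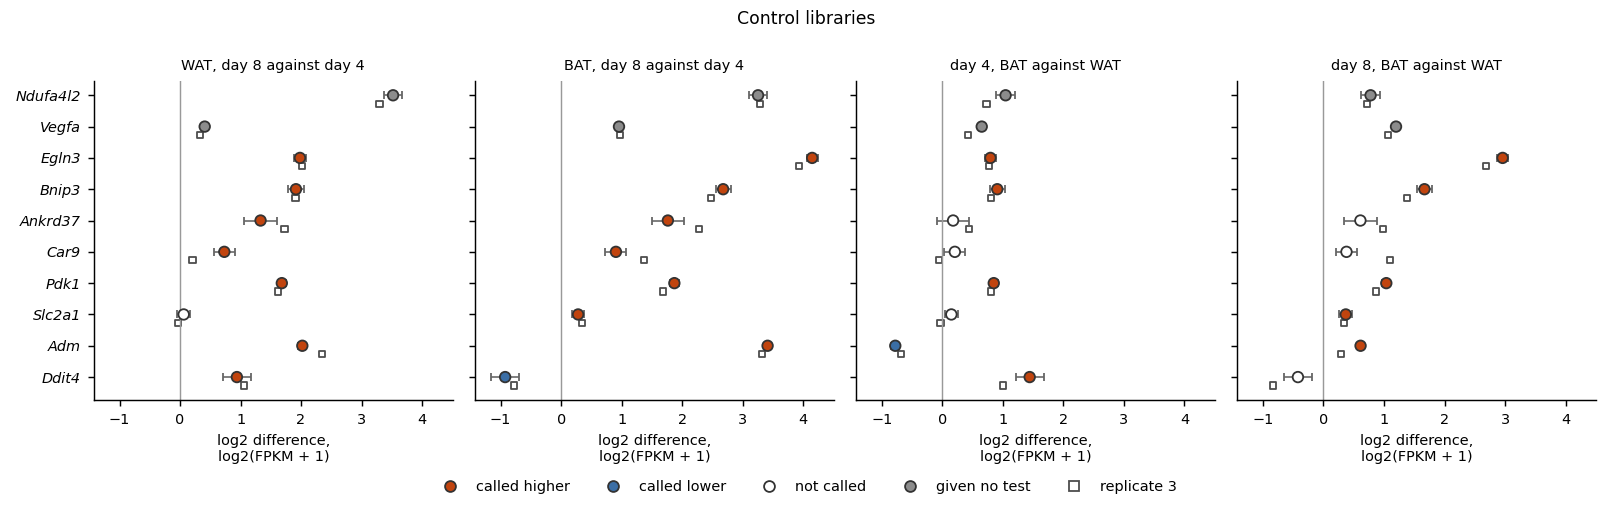
Log2 differences between control groups on the log2(FPKM + 1) scale for the 10 genes: day 8 against day 4 in WAT and BAT, and BAT against WAT at day 4 and day 8. Circles are from replicates 1 and 2 with the SE of the fit, grey where no test was given, and squares are replicate 3. Egln3 in BAT reaches 4.15 between the days, and Ddit4 lies at -0.93.

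The order of the 8 groups differed between genes. BAT day 8 control cells had the highest mean of Ndufa4l2, Vegfa, Egln3, Bnip3, Car9, Pdk1 and Adm, and WAT day 4 EGCG cells that of Ankrd37, Slc2a1 and Ddit4. For Ankrd37 the WAT day 4 EGCG and BAT day 8 control libraries overlapped, with means of 6.98 and 6.80 FPKM. Replicate 3 of Ankrd37 read 11.4 and 13.7 FPKM in these groups, the other order. WAT day 4 control cells had the lowest mean of 8 genes, BAT day 4 control cells that of Adm, at 26.3 FPKM, and BAT day 8 EGCG cells that of Ddit4, at 48.5 FPKM. The fold between the highest and the lowest mean was 47.5-fold for Egln3, 20.9-fold for Ndufa4l2 and 12.2-fold for Bnip3, and 3.07-fold for Vegfa. For Ndufa4l2 the order ran BAT day 8 control, WAT day 4 EGCG, WAT day 8 EGCG and control, BAT day 4 EGCG, BAT day 8 EGCG, BAT day 4 control and WAT day 4 control, and only the WAT day 8 groups overlapped as neighbours. For Vegfa only BAT day 4 control and EGCG overlapped. For Egln3 the neighbours that overlapped were WAT day 8 EGCG and BAT day 8 EGCG. No neighbours of Pdk1 overlapped, and 4 pairs of neighbours of Car9 did. WAT day 4 EGCG cells came close to BAT day 8 control cells for Vegfa, at 206 and 224 FPKM, and stood below them for Egln3, at 14.4 and 83.9 FPKM.

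Several paralogs of the 10 genes differed from them in direction in some or all comparisons. Slc2a4, the insulin-responsive glucose transporter GLUT4 of mature fat, fell with EGCG by 4.88 in WAT day 8 cells (log2, adjusted p = 8.07e-10, limma), by 2.81 in BAT cells at day 4 (adjusted p = 1.31e-07) and by 5.62 in BAT cells at day 8 (adjusted p = 9.88e-11), the groups in which Slc2a1 rose. Its mean was 126 FPKM in BAT day 8 control and 1.58 FPKM in EGCG cells, against 41.2 and 67.0 FPKM for Slc2a1. Pdk2 fell in the same 3 comparisons, by 1.37, 0.93 and 2.61 (adjusted p = 2.28e-07, 9.64e-06 and 4.77e-10). Pdk1 fell as well in both day 8 comparisons, so Pdk2 went the other way only in BAT day 4 cells. Pdk3 rose in the same comparisons, by 0.60, 0.31 and 0.43 (adjusted p = 6.12e-06, 0.00161 and 6.11e-05). Pdk4, the kinase of fasting, fell by 3.504 in BAT day 8 cells (adjusted p = 2.59e-08), where Pdk1 fell too, and did not pass in BAT day 4 cells (0.08, adjusted p = 0.773), where Pdk1 rose. Ndufa4 fell by 0.67 in BAT day 4 cells (adjusted p = 0.000135) and by 0.89 in BAT day 8 cells (adjusted p = 4.99e-06), and did not pass in WAT day 8 cells (-0.11, adjusted p = 0.34). Vegfc had log2 differences of 0.44, 0.10 and 0.33 in the same order (adjusted p = 0.00228, 0.457 and 0.0107), and the last did not pass without BAT day 8 control replicate 2 or EGCG replicate 1 (adjusted p = 0.11 and 0.0927). Ddit4l rose in all 3, by 0.72, 0.72 and 1.04 (adjusted p = 5.62e-05, 9.3e-05 and 1.47e-06), while Ddit4 fell in both day 8 comparisons. In WAT day 4 cells, without a test, Slc2a4 differed by -2.24, Pdk2 by -0.95, Ndufa4 by -0.82 and Ddit4l by 0.95.

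**Figure D4:**
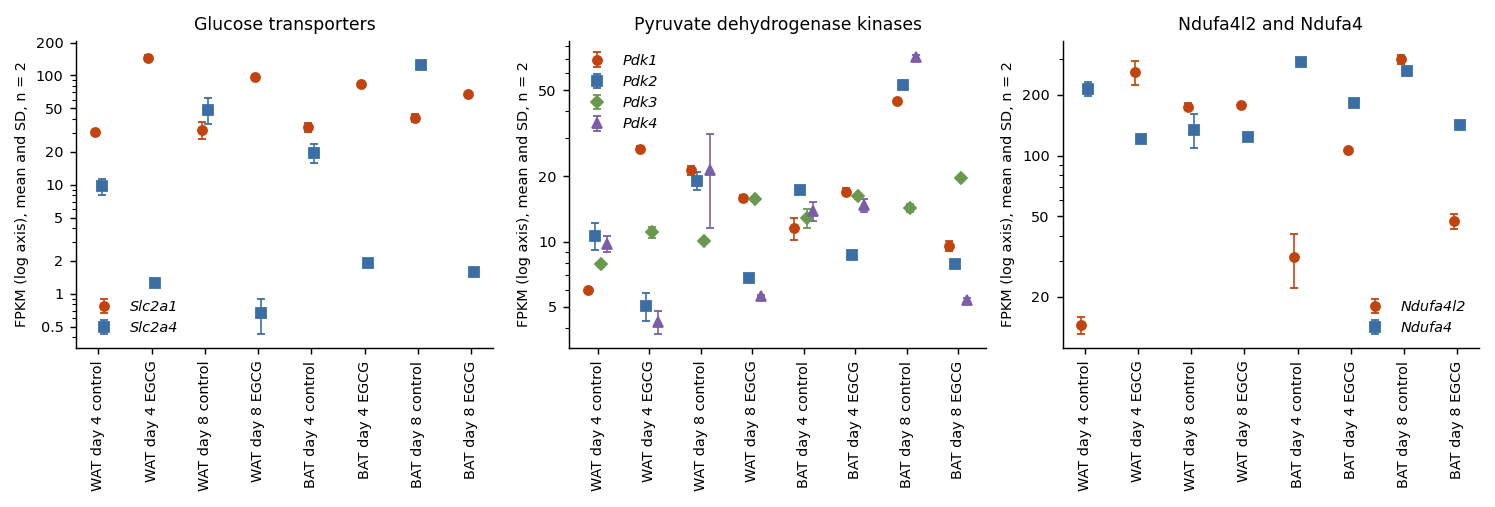
Mean FPKM with SD of replicates 1 and 2, on a log axis, for the glucose transporters, the pyruvate dehydrogenase kinases and the Ndufa4 pair in the 8 groups. Slc2a4 stands at 126 FPKM and Slc2a1 at 41.2 FPKM in BAT day 8 control cells, and at 1.58 and 67.0 FPKM with EGCG.

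The subunits of HIF and its regulators made a list of 13 genes, all measured. Hif1a mRNA rose with EGCG by 1.23 in WAT cells at day 8 (log2, adjusted p = 2.29e-05, limma), by 0.49 in BAT cells at day 4 (adjusted p = 0.0189) and by 1.51 in BAT cells at day 8 (adjusted p = 2.46e-06), where 6 of the 8 target genes given a test fell. HIF is regulated mainly at the protein, which was not measured here. Epas1, the second alpha subunit, fell by 1.81 in BAT day 8 cells (adjusted p = 6.81e-09), rose by 0.31 in BAT day 4 cells (adjusted p = 0.0152) and had a difference of -0.00 in WAT day 8 cells (adjusted p = 0.998). The BAT day 4 calls of Hif1a and Epas1 were both lost without control replicate 2 (0.39 and 0.27, adjusted p = 0.127 and 0.0904), EGCG replicate 1 (adjusted p = 0.0671 and 0.0684) or EGCG replicate 2 (adjusted p = 0.0729 and 0.052). Egln1, the main oxygen-sensing hydroxylase and itself a HIF target, rose by 0.52 and 0.80 in WAT day 8 and BAT day 4 cells (adjusted p = 4.17e-05 and 2.29e-06) and fell by 1.11 in BAT day 8 cells (adjusted p = 3.74e-08). Hif3a fell by 1.52 and 2.45 in WAT day 8 and BAT day 8 cells (adjusted p = 3.85e-05 and 3.89e-07). Arnt did not pass in any of the 3 comparisons, with values from -0.04 to 0.13. In WAT day 4 cells Hif1a read a mean of 70.9 FPKM in control and 98.1 FPKM in EGCG cells and Epas1 34.4 and 72.9 FPKM, without a test. Over the list, 8 of 13 genes rose and 2 fell in WAT cells at day 8, where 44.7% of all genes were called higher and 18.9% lower, with a median of 0.26. In BAT cells at day 4, 5 rose and 0 fell, against 27.9% and 20.6% of all genes, with a median of 0.06, and 3 rose without control replicate 2, EGCG replicate 1 or EGCG replicate 2. In BAT cells at day 8, 5 rose and 5 fell, against 46.5% and 26.1% of all genes, with a median of 0.0009. The higher calls of BAT day 8 were thus no larger a share than among all genes.

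A further list of 43 known HIF targets, grouped by role, held 41 genes that passed the filter, all but Epo and Car12. Like the other gene lists, it was chosen with earlier results of these data known. Its counts and those of its groups are therefore a description and not independent support for the 10 genes. In WAT day 4 cells both EGCG libraries lay above both control libraries for 40 of the 41, against 47.9% of all genes, with a median log2 difference of 1.40. This is the comparison that chose the 10 genes, and no test is given. In WAT day 8 cells 24 of 41 rose and 9 fell, with a median of 0.24, where 44.7% of all genes were called higher and 18.9% lower, so that the lower calls were near the share of all genes. In BAT day 4 cells 35 rose and 4 fell, with a median of 0.56, against 27.9% and 20.6% of all genes. In BAT day 8 cells 10 rose and 30 fell, with a median of -0.65, against 46.5% and 26.1% of all genes. The difference of the EGCG effects between BAT and WAT at day 8 was called lower for 34 of 41 and higher for 2, against 19.7% and 19.4% of all genes. That between day 8 and day 4 in BAT was called lower for 38 and higher for 1, against 20.6% and 34.7% of all genes.

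Of 15 glycolysis genes, 13 rose and 2 fell in BAT day 4 cells, in BAT day 8 cells 2 rose and 13 fell, and in WAT day 8 cells 8 rose and 3 fell. Of all genes, 27.9%, 46.5% and 44.7% were called higher in these comparisons and 20.6%, 26.1% and 18.9% lower, and the WAT day 8 counts lay near these shares. The 2 lower calls of BAT day 4 were lost without control replicate 2, EGCG replicate 1 or EGCG replicate 2, and 1 was left without control replicate 1. Ldha, lactate dehydrogenase A, had mean levels of 482 and 687 FPKM in BAT day 4 control and EGCG cells and of 1158 and 598 FPKM at day 8, log2 changes of 0.51 and -0.95 (adjusted p = 1.68e-05 and 2.48e-08, limma). Hk1 rose in both BAT comparisons, by 1.26 and 0.78 (adjusted p = 1.43e-08 and 1.14e-07). Slc16a3, the lactate exporter MCT4, had a mean of 5.06 FPKM in WAT day 4 control cells and 49.2 FPKM with EGCG, without a test. Of 6 mitochondrial and autophagy genes, 6 rose in BAT day 4 cells and 6 fell in BAT day 8 cells, among them Cox4i2, the hypoxic subunit of cytochrome oxidase, by 1.23 and -2.33 (adjusted p = 5.88e-07 and 7.33e-10). In WAT day 8 cells 5 of the 6 rose, and Cox4i2 fell by 0.70 (adjusted p = 3.19e-05).

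Secreted and vascular targets split. In BAT day 8 cells 4 of 7 rose, among them Flt1 by 1.23, Pgf by 1.07 and Edn1 by 0.91 (adjusted p = 7.1e-08, 9.06e-09 and 0.000168, limma), while 3 fell, among them Angptl4 by 2.95 and Igfbp3 by 2.85 (adjusted p = 2.18e-10 and 1.04e-08). Pgf, a relative of Vegfa that binds the receptor Flt1, also rose in WAT day 8 and BAT day 4 cells, by 1.48 and 2.06 (adjusted p = 2.04e-09 and 8.42e-10). In WAT day 8 cells 4 of the 7 rose and 2 fell, and in BAT day 4 cells 6 rose and 0 fell. Over all genes 44.7% were called higher and 18.9% lower in WAT day 8 cells, 27.9% and 20.6% in BAT day 4 cells and 46.5% and 26.1% in BAT day 8 cells, and the counts of WAT day 8 in this group and the next lie near those shares. Collagen and oxidoreductase enzymes (6) split as well, with 2 up and 3 down in BAT day 8 cells, 5 up and 1 down in BAT day 4 cells, and 2 up and 2 down in WAT day 8 cells. The count of BAT day 4 depended on control and EGCG replicate 2, and those of WAT day 8 on control replicate 2 and EGCG replicate 1. Ero1l, the oxidase of protein folding, fell by 3.43 in BAT day 8 cells (adjusted p = 1.27e-11). Of 7 regulators and stress genes, 5 rose and 1 fell in both WAT day 8 and BAT day 4 cells, and 2 rose and 5 fell in BAT day 8 cells, or 3 without EGCG replicate 2. Bhlhe40 rose in all 3, by 1.06, 1.09 and 0.31 (adjusted p = 4.64e-08, 8.33e-08 and 0.000713), and Ppp1r3c, a glycogen-targeting subunit, fell in all 3, by 2.23, 1.25 and 4.86 (adjusted p = 9.13e-08, 1.77e-05 and 7.02e-11).

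**Figure D5:**
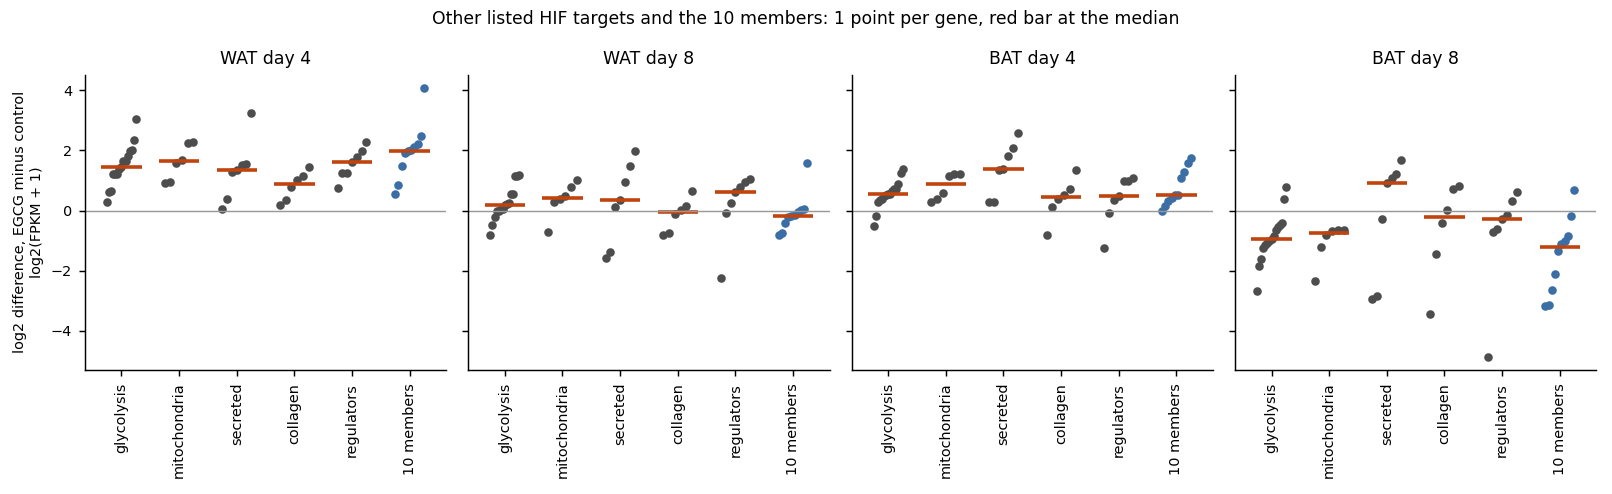
Log2 difference between EGCG and control on the log2(FPKM + 1) scale for 41 other listed HIF targets, by role, and for the 10 genes (blue), in each depot and day. Each point is a gene and each red bar a median. From left to right the medians of the 10 genes are 1.98, -0.16, 0.52 and -1.23.

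The pattern of levels over the 8 groups was compared with that of every tested gene by Pearson's r of group means, as a description over 8 points that share libraries. The genes most like Ndufa4l2 were Gm6665 (r = 0.985), Cir1 (0.976), Pcgf5 (0.974), Mllt6 (0.969) and Sema6b (0.959). Those most like Vegfa were Fgf11 (0.954), Zfp187 and Bcl6 (both 0.948), Gm5918 (0.946) and Khnyn (0.938). Neither list holds another of the 10 genes.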

How the data were processed

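Total RNA of 24 libraries was sequenced by the authors. The submitters' processing notes name FastQC 0.11.9, HISAT2 2.2.0, HTSeq 0.11 and the build mm9, and the deposited values are FPKM per gene in 2 tables of 37310 genes. Within 0.01 reads, 100% of the values in both tables were whole multiples of 1 read, which gave the depth of each library. The strand setting of the counting is not given in the sources used here.

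The 10 genes and all gene lists were chosen with earlier results of these data known. All 10 genes and every listed gene could be named, and for Ndufa4l2 and Vegfa also the 5 genes of most similar pattern. Genes with at least 1 FPKM in at least 2 of the 16 libraries of replicates 1 and 2 were kept. They were fitted with limma 3.58.1 in R 4.3.3 on log2(FPKM + 1) with 1 mean per group and a trended prior, two-sided, and p-values were adjusted by Benjamini-Hochberg over 14095 genes, with calls at an adjusted p under 0.05. A standard error rests on 8 residual degrees of freedom, or 11.4 with the prior. The planned tests of Ndufa4l2 and Vegfa between days in BAT and between depots at day 8 were left out after the fit, since the rule had used those control values. Replicate 3 was used for direction only, since its table was scaled separately. The procedure was tested on simulated data. Alternatives were another pseudocount, no filter, median-ratio scaling, quantile normalization, a replicate block, leaving out each library, and limma-voom on the recovered reads. Leaving out a library left 1 in its group, which then added nothing to the spread. Calls of those fits are therefore not read as support. Intervals and floors cover counting error only. The values of 1 listed gene are not reported here.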

Additional observations from a re-analysis of the deposited data

Results flagged for a closer look

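The EGCG effect of several of the 10 genes differed between depots or days by a test of the difference itself (limma, log2 scale). Between BAT and WAT cells at day 8 the effect differed by -2.97 for Egln3 (adjusted p = 9.83e-08), -2.41 for Bnip3 (2.26e-06), -1.72 for Pdk1 (4.15e-07), -0.91 for Adm (1.86e-05) and -0.89 for Slc2a1 (0.000663). Between day 8 and day 4 in BAT cells it differed by -4.25 for Egln3 (adjusted p = 2.09e-09), -3.56 for Bnip3 (5.6e-08), -2.64 for Pdk1 and -2.45 for Adm (both 6.25e-09), -1.62 for Ankrd37 (0.00337), -1.16 for Ddit4 (0.0101) and -0.60 for Slc2a1 (0.00452).

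Against WAT day 4 cells, where both EGCG libraries lay above both control libraries, the EGCG libraries lay below the control libraries for other groups. The contrast with WAT day 4 cells was not tested. The rule that chose the genes used the WAT day 4 comparison, and took Ndufa4l2 and Vegfa as higher mainly there. That side of the contrast was therefore fixed in advance, and nothing is read from the opposite directions. Within their own group, Egln3 in WAT day 8 cells and Car9 in BAT day 8 cells did not pass (adjusted p = 0.0802 and 0.328, limma). Ndufa4l2 and Vegfa were given no test, and the nearest libraries of Vegfa lay close in WAT day 8 cells. In WAT day 8 cells the EGCG libraries lay below the control libraries for Vegfa (-0.0428), Egln3 (-0.20), Bnip3 (-0.74), Pdk1 (-0.40) and Ddit4 (-0.82). In BAT day 8 cells they did so for Ndufa4l2 (-2.64), Vegfa (-1.35), Egln3 (-3.17), Bnip3 (-3.14), Ankrd37 (-1.10), Car9 (-0.20), Pdk1 (-2.12), Adm (-0.86) and Ddit4 (-1.01). Ndufa4l2 was also opposite between BAT day 4 and BAT day 8 cells, which was not tested either. Of the 10 genes, Slc2a1 was higher with EGCG in all 4 depot and day groups.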

How the results depend on the processing

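Over all alternatives, 2271 of 2400 values of single genes and comparisons kept their direction and side of the threshold or moved by less than the replicate spread, 64 values without a test moved further, 35 passed the threshold only under the alternative, 9 only in the main fit, and 21 changed sign. The median log2 difference of the 10 genes in WAT day 4 cells was 1.98, and 2.15 with a pseudocount of 0.1. Without single libraries, the number of genes called in BAT day 4 cells changed. Between depots at day 8, 5 genes were called, and 8 under voom with 24 and with 23 libraries. In WAT day 8 cells the difference of Adm was -0.15 under median-ratio scaling and under voom on the recovered reads, and -0.23 and -0.22 under voom with 24 and 23 libraries. Slc2a1 between depots at day 4 was -0.0122 under median-ratio scaling, -0.0145 under voom, and -0.0189 and -0.019 under voom with 24 and 23 libraries. The interaction of Car9 between depots at day 8 was 0.0002 with a pseudocount of 0.1 and 0.10 under voom. Without single libraries, values that changed sign ranged from -0.0573 to 0.15 for Adm, -0.69 to 0.41 for Ankrd37 and -0.52 to 0.14 for Car9 in WAT day 8 cells, from -0.12 to 0.24 for Slc2a1 between days in WAT, from -0.0292 to 0.38 for Ankrd37 between depots at day 4, from -0.96 to 0.11 for Ddit4 between depots at day 8, and for the interaction between depots at day 8 from -0.33 to 0.32 for Car9 and -0.73 to 0.34 for Ddit4. The causes were not tested.

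The replicate block changed no call: the 10 genes' median in WAT day 4 cells was 1.98, and 4, 5 and 7 genes were called in WAT day 8, BAT day 4 and BAT day 8 cells. Replicate numbers carried no visible shared effect, since correlations of replicate differences between groups ranged from -0.079 to 0.081 and 0 of 28 pairs exceeded 0.1. That cannot show whether libraries of the same number were matched by animal or batch, which the labels do not say. Voom on the recovered reads was chosen after seeing the data in place of edgeR fits of 16, 24 and 23 libraries, which were not run. With 2 libraries per group in the fit, the SE of a difference was widest for Ankrd37, at 0.27, for Ddit4, at 0.23, and for Car9, at 0.17, of which Ankrd37 had 35 to 326 and Car9 18 to 151 reads a library.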
